A study of Homo sapiens with 12 samples.

Results

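The genes described here are 58 genes of mitosis, measured in MDA-MB-468, a human cell line from a basal-like breast cancer. They were chosen by name from knowledge of what their proteins do in cell division, with earlier results of these data known. All 58 were found among the 56832 gene names of the count files and among the 14549 genes that passed the filter on low counts. Cells stably carried pCDH-TRB, which expresses the beta receptor for thyroid hormone (TRB cells), or the empty pCDH-EV vector (EV cells). All cells spent 24 hours in phenol-red free medium with hormone-stripped serum and then 24 hours with 10 nM of the thyroid hormone T3 or with its vehicle, NaOH. Each of the 4 combinations has 3 libraries, 12 in all. Only 1 stable pool stands for each vector, so TRB and EV comparisons are between 2 pools of cells. Nothing in the labels tells separate cultures from repeat libraries of 1 culture, and p-values here reflect the spread among libraries alone, which may be technical.

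Entry into mitosis is driven by the kinase CDK1 bound to cyclin B, once a CDC25 phosphatase has removed the inhibitory phosphates from CDK1. Chromosomes are then condensed, attached through their kinetochores to a spindle built by kinesin motors, and held until the spindle checkpoint is satisfied. The checkpoint acts on the anaphase promoting complex (APC/C), a ubiquitin ligase whose activators CDC20 and FZR1 direct it to securin and the cyclins. Most of these genes are transcribed in a wave in G2 and mitosis through the MuvB complex with MYBL2 and FOXM1, often at a promoter element called the cell cycle genes homology region (CHR) and at CCAAT boxes, and they are repressed by the DREAM complex in resting cells. In bulk RNA, fewer cells in mitosis and less of each RNA per cell cannot be told apart.

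Library totals ranged from 4241863 to 11955825 counts assigned to genes, and every T3 library (10323437 and above) was deeper than every vehicle library (8904361 and below). Mitochondrial ribosomal RNA made up 0.326% to 2.68% of counts in vehicle libraries and 0.0502% to 0.0900% in T3 libraries. THRB, the receptor gene, lay between 37.7 and 44.2 CPM (counts relative to the library total, scaled by TMM factors) in EV libraries, between 136 and 144 CPM in TRB vehicle libraries and between 311 and 344 CPM in TRB T3 libraries. All 5 basal markers were detected, with EGFR between 4225 and 5664 CPM, while PGR, COL1A2 and LUM had no count in any library. Of the other fibroblast markers, COL1A1 lay between 14.6 and 21.1 CPM, and PDGFRB had 7 counts over all libraries. The basal keratins were lower in the TRB T3 libraries than in the TRB vehicle libraries: KRT5 measured 899.7 ± 55.8 CPM in the vehicle libraries and 224 ± 23.5 CPM in the T3 libraries, KRT17 373 ± 18.5 and 122 ± 12.8 CPM, and KRT14 29 ± 0.606 and 11.7 ± 0.985 CPM (SD, n = 3). In EV vehicle libraries KRT5 stood at 1158.5 CPM, KRT17 at 551, KRT14 at 70.2 and EGFR at 5514.5 CPM, above the TRB vehicle means. CDH1 stood at 173 ± 8.73 CPM in EV vehicle libraries. In EV T3 libraries KRT5, KRT17 and KRT14 stood at 999, 522 and 71.0 CPM. Of the other basal markers, CDH1 was higher with T3, at 184 ± 3.29 CPM in TRB vehicle and 232 ± 5.71 CPM in TRB T3 libraries. EGFR measured 4421 ± 63.9 and 4274 ± 69.8 CPM in the same groups. Of the luminal markers, GATA3 measured 65.6 ± 2.20 and 34.6 ± 1.41 CPM and FOXA1 155 ± 6.90 and 129 ± 5.91 CPM. ESR1 was higher with T3, at 7.09 ± 0.0267 and 10.4 ± 0.444 CPM. Of the leukocyte markers, CD14 stood at 29.96 ± 2.46 CPM in EV vehicle, 51.3 ± 1.35 CPM in EV T3, 19.6 ± 2.10 CPM in TRB vehicle and 186 ± 6.47 CPM in TRB T3 libraries (SD, n = 3), while PTPRC and CD3E stayed below 0.5 CPM in every library. The 3 endothelial markers summed to at most 2.13 CPM in vehicle and 6.47 CPM in T3 libraries. The part of depth, mitochondrial RNA and these markers in the results was not tested, except that each count of called genes was repeated on counts thinned to equal depth.

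The promoters of 8 members are shown here because 5 of them (CDC25B, ANLN, CDC20, CCNB2 and PLK1) belong to genes that fell with T3 in TRB cells and 3 (BUB1B, KIF22 and FZR1) to the genes that rose. Each runs 5′ to 3′ on the strand of its gene, from 250 bases before the start site to 30 bases after it, as given by RefSeq for GRCh38.p14. Capitals mark the CHR, searched as TTTGAA or TTCGAA, and the CCAAT box, searched as CCAAT, both on either strand. On the reverse strand they read TTCAAA and ATTGG. The regions are chr20:3786701-3786980, chr7:36389612-36389891, chr1:43358731-43359010, chr15:59104896-59105175, chr16:23678639-23678918, chr15:40160819-40161098, chr16:29790501-29790780 and chr19:3506061-3506340, all on the plus strand, in the order printed.
CDC25B: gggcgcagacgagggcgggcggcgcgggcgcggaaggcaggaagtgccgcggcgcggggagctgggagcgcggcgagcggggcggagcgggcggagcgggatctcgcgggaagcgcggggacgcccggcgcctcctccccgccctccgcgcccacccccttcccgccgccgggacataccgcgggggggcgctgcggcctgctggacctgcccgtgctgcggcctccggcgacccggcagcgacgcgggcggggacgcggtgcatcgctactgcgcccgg
ANLN: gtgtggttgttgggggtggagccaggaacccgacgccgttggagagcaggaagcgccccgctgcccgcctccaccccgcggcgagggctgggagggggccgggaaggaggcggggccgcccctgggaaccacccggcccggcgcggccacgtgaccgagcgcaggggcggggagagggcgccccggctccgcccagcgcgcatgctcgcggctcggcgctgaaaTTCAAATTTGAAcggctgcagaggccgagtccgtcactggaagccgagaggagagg
CDC20: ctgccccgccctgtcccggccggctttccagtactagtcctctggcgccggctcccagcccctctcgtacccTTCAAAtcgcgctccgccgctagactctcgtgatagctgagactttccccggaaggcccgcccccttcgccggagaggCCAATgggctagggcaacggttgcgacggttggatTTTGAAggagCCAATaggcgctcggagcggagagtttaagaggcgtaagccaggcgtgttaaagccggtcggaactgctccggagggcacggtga
CCNB2: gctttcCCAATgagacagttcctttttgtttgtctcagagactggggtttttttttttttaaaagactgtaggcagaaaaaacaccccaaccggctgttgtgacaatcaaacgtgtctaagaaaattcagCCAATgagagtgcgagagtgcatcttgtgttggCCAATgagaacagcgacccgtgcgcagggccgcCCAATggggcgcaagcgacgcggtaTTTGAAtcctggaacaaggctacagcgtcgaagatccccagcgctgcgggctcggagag
PLK1: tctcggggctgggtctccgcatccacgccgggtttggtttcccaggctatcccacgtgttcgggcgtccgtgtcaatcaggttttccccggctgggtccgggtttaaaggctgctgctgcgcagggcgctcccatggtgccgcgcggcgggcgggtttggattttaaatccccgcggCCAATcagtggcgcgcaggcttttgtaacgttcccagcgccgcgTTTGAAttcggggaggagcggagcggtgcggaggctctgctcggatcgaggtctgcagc
BUB1B: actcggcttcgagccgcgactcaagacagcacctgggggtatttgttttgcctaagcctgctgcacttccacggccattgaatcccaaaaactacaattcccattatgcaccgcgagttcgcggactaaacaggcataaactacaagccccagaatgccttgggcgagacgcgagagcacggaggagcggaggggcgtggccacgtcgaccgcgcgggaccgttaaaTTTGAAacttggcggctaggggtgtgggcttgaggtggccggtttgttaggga
KIF22: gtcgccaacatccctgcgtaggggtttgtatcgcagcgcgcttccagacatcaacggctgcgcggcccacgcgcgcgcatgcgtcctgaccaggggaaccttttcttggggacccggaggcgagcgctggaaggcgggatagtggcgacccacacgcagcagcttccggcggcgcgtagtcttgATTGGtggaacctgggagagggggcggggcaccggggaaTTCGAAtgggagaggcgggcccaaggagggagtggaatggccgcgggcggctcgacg
FZR1: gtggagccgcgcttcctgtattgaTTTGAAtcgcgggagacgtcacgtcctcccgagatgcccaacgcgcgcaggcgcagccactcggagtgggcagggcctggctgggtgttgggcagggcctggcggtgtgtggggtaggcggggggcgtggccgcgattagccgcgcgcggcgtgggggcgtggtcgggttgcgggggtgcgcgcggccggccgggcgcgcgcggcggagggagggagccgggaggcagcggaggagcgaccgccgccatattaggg

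ANLN held a TTTGAA on each strand, at 26 and 20 bases before the start site, and no CCAAT. CCNB2 had a CHR match at 29 bases before the start and 4 CCAAT matches further upstream, and CDC20 had CHR matches at 178 and 65 bases before the start. The CHR matches in BUB1B and KIF22 lay 23 and 27 bases before the start and the CHR match in FZR1 lay 226 bases before it. KIF22 also had a CCAAT match at 66 bases before the start. No capital appears in CDC25B because neither motif's letters occur in that window. RefSeq promoters were matched for 50 of the 58 members. The members without an entry were UBE2C, AURKA, TTK, FOXM1, BIRC5, TPX2, RACGAP1 and BUB3. A CHR match was present in 35 of the 50 (70%), against 10.5% of the 9797 promoters of genes tested and 15.8% of all 27305 promoters. A CCAAT match was present in 37 (74%), against 36.3% and 34.7%, and both motifs together in 28 (56%), against 4.42% and 6.09%. Of the 35 members with a CHR match 24 fell with T3 in TRB cells, with a median log2 fold change of -0.21, and of the 15 without one 13 fell, with a median of -0.29. Among all genes tested 26.9% of those with a CHR match fell (median -0.03) and 23.5% of those without (median -0.01). All 3 members that rose held a CHR match. A match describes letters in a window and is not a measured site.

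The first question was what T3 did to these genes in cells with the added receptor. With T3, 45 of the 58 members fell and 3 rose in the quasi-likelihood test of edgeR, with p-values adjusted by Benjamini-Hochberg over all genes tested and a threshold of 0.05. Among all genes tested 21.9% fell and 22.4% rose, 44.4% in either direction. The members' median log2 fold change was -0.25, a median change of -15.8%, against -0.00 for all genes. In 46 members every TRB T3 library lay below every TRB vehicle library, an order found in 25.8% of all genes, and in 3 members every T3 library lay above, against 26.1%. The largest decrease was that of CDC25B, at -0.68, and the largest increase that of BUB1B, at 0.35. Added up over the 58 members, the TRB vehicle libraries held 8252, 8272 and 8035 CPM and the TRB T3 libraries 7014, 6860 and 6751 CPM. Of the 48 calls 39 were kept under all 15 alternative settings. On counts thinned to equal depth 42 members were called, with a median of -0.22.

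**Figure D1:**
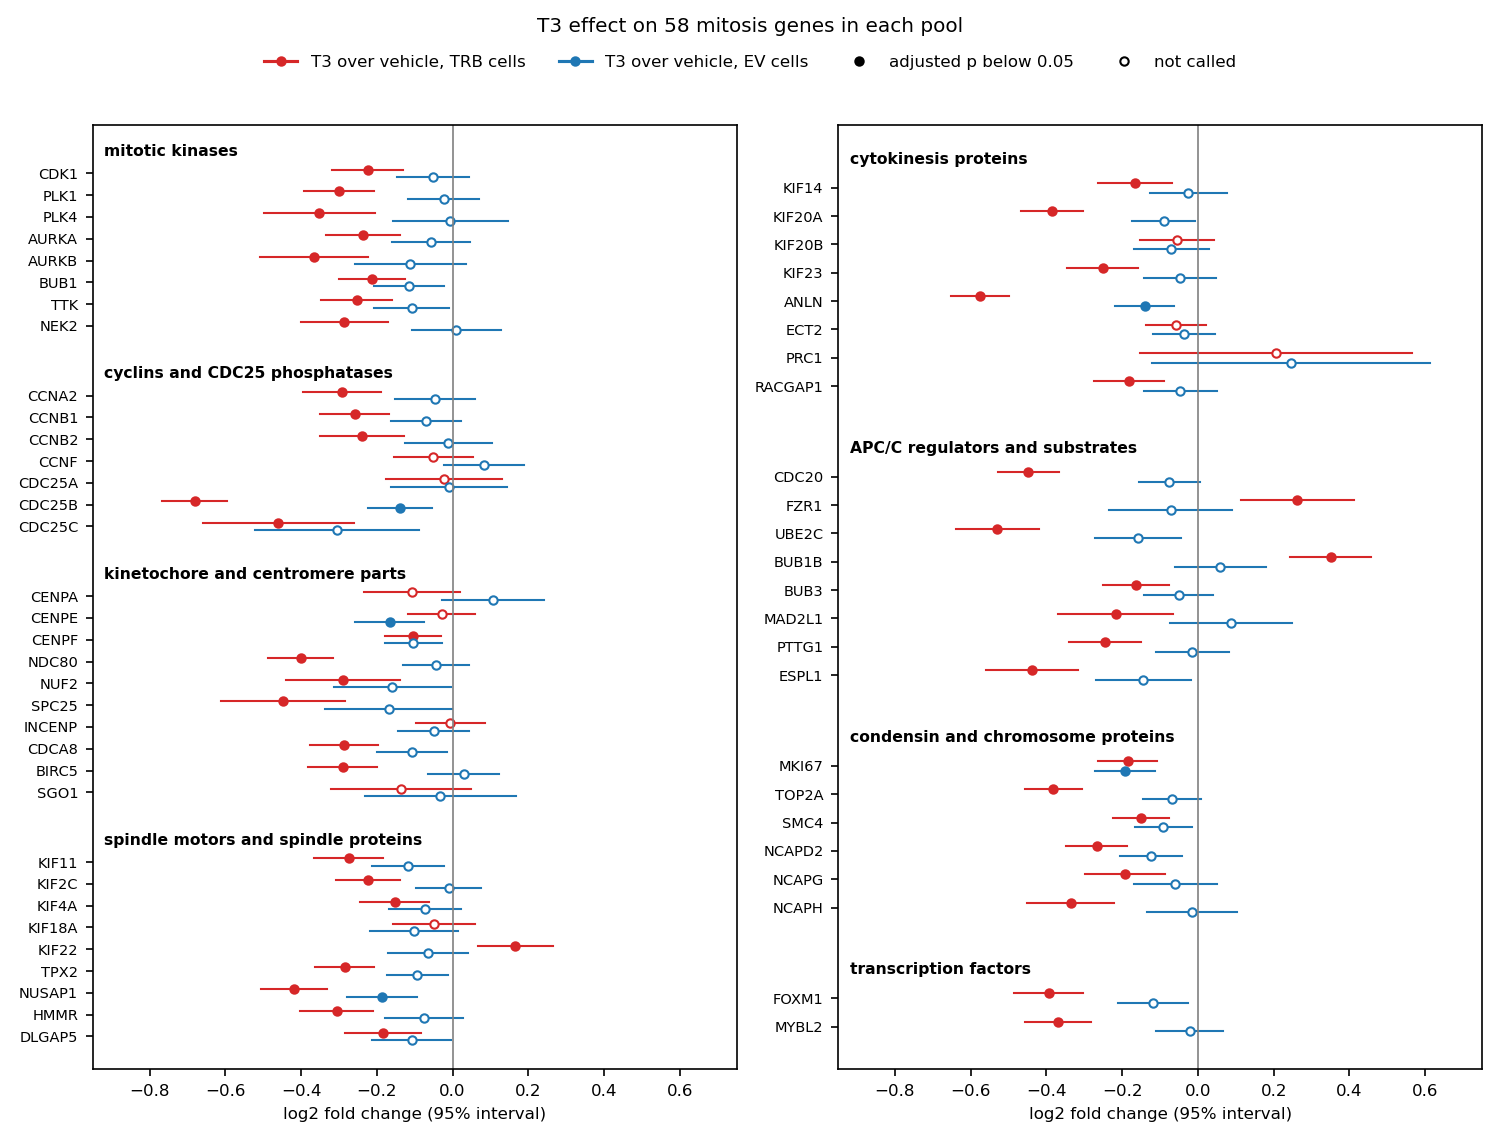
Log2 fold change of T3 over vehicle for each of the 58 members, by role, in TRB cells (red) and EV cells (blue), with 95% intervals. Filled points passed an adjusted p of 0.05 (45 lower and 3 higher in TRB cells, 5 lower and 0 higher in EV cells).

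All 8 mitotic kinases fell in TRB cells, by similar amounts: their median log2 fold change was -0.27 and the range ran from -0.37 to -0.21. CDK1 (chromosome 10, 60778331 to 60794852), the kinase that drives entry into mitosis, stood at 133, 138 and 126 CPM in the TRB vehicle libraries and 117, 114 and 109.6 CPM in the TRB T3 libraries. PLK1 (chromosome 16, 23677656 to 23690367), which acts in centrosome maturation and spindle assembly, measured 119, 119 and 122 CPM in vehicle libraries and 99.3, 98.8 and 94.6 CPM in T3 libraries. In both genes the highest T3 library lay below the lowest vehicle library. CDK1 fell by 14.4% (log2 fold change -0.22, SE 0.0467, adjusted p = 4.9e-05) and PLK1 by 18.7% (-0.30, SE 0.0462, adjusted p = 1.12e-07). AURKB, the catalytic subunit of the chromosomal passenger complex, went from 42.3, 43.9 and 39.2 CPM to 29.9, 33.5 and 34.2 CPM, and AURKA, the spindle pole kinase, from 97.3, 101 and 95.2 CPM to 81.1, 86.3 and 82.1 CPM. The groups did not overlap for either Aurora kinase. The log2 fold change was -0.37 for AURKB (SE 0.0715, adjusted p = 1.6e-05) and -0.24 for AURKA (SE 0.0493, adjusted p = 4.96e-05). On thinned counts AURKB moved to -0.15 and lost its call (adjusted p = 0.27), and no other kinase did. PLK4, which starts centriole duplication, fell by 0.35, NEK2, which separates centrosomes, by 0.29, and the checkpoint kinases TTK and BUB1 by 0.25 and 0.21 on the log2 scale.

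Of 7 cyclins and CDC25 phosphatases 5 fell in TRB cells and 0 rose. The CDC25 phosphatases, which activate CDK1 and CDK2, differed in their values. CDC25B (chromosome 20, 3786772 to 3806121) measured 191, 190.3 and 194 CPM in vehicle libraries and 123, 117 and 118 CPM in T3 libraries. CDC25C stood at 18, 20.2 and 19.9 CPM and 14.1, 13.9 and 14.3 CPM, and CDC25A at 34, 29.8 and 29.8 CPM and 32.6, 29.5 and 29.9 CPM. The T3 libraries were lower without overlap for CDC25B and CDC25C, and the groups overlapped for CDC25A. CDC25B fell by 37.6% (SE 0.0426 on the log2 scale, adjusted p = 8.21e-23) and CDC25C by 27.3% (SE 0.1, adjusted p = 9.55e-05), while the log2 fold change of CDC25A was -0.02 (95% interval -0.18 to 0.13, adjusted p = 0.837). CCNB1 (chromosome 5, 69167010 to 69178245), the cyclin B1 gene, went from 149, 148 and 132 CPM to 118, 123 and 118 CPM and fell by 16.4% (adjusted p = 2.51e-06). The 3 T3 values lay close together and below all vehicle values. CCNA2, cyclin A2, fell by 0.29 and CCNB2, cyclin B2, by 0.24 on the log2 scale. CCNF, an F-box protein of a ubiquitin ligase, was not called, at -0.05 (95% interval -0.16 to 0.05).

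Among 10 kinetochore and centromere genes 6 fell and 4 were not called. The 3 genes listed here for the microtubule-binding NDC80 complex were all lower. NDC80 (chromosome 18, 2571511 to 2616635) measured 173, 174 and 166 CPM in vehicle libraries and 129.6, 130.0 and 129 CPM in T3 libraries, 3 nearly equal values. It fell by 24.3% (log2 fold change -0.40, SE 0.0425, adjusted p = 9.85e-13). Its partner SPC25 went from 32.5, 30.2 and 32.9 CPM to 23.8, 22.6 and 23.5 CPM, a log2 fold change of -0.45 (SE 0.0817, adjusted p = 4.55e-06), and NUF2 was at -0.29 (adjusted p = 0.00102). The genes of the non-catalytic subunits of the chromosomal passenger complex, which corrects wrong attachments, were split. BIRC5, the survivin gene (chromosome 17, 78214186 to 78225636), went from 159.8, 171 and 155 CPM to 134, 134 and 130.0 CPM, and CDCA8, which encodes borealin, had a log2 fold change of -0.29, like that of BIRC5 at -0.29. The scaffold gene INCENP stood at 133 ± 6.21 CPM in vehicle libraries and 133 ± 4.69 CPM in T3 libraries (SD, n = 3), a log2 fold change of -0.01 (95% interval -0.10 to 0.08), and was not called.

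The other kinetochore and centromere genes had smaller values. CENPA, the histone H3 variant that marks centromeres, measured 47.3, 47.9 and 47.7 CPM in vehicle libraries and 44.5, 43.6 and 44.7 CPM in T3 libraries. Its groups did not overlap, but the log2 fold change of -0.11 missed the threshold (adjusted p = 0.172). CENPE, a kinetochore kinesin, was at -0.03 (95% interval -0.12 to 0.06) and SGO1, which protects cohesin at centromeres, at -0.14 (95% interval -0.32 to 0.05). CENPF, a large coiled-coil protein of the kinetochore, passed at -0.10 (adjusted p = 0.0179). It missed the threshold without TRB vehicle replicate 1 (0.0606), TRB vehicle replicate 2 (0.0704) or TRB T3 replicate 2 (0.0752), with no filter on low counts (0.112) and with the GC trend removed (0.0882).

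Of 9 spindle motors and spindle proteins 7 fell, 1 rose and 1 was not called. NUSAP1, which bundles spindle microtubules (chromosome 15, 41332694 to 41381050), measured 147, 151 and 147 CPM in vehicle libraries and 111, 113 and 109.6 CPM in T3 libraries. The values were tight in both groups and did not overlap, and NUSAP1 fell by 25.2% (SE 0.0441 on the log2 scale, adjusted p = 8.18e-13). In the annotation 62.2% of its exon bases are shared with the readthrough gene AC087721.2 on the same strand, so its count depends on how shared reads were assigned. TPX2, which activates AURKA on the spindle, went from 281, 268 and 262 CPM to 224, 229 and 214 CPM, and the hyaluronan receptor HMMR, a spindle pole protein, from 109, 111 and 102 CPM to 89.4, 88.1 and 83.3 CPM. Neither gene's groups overlapped, and their log2 fold changes were -0.28 and -0.31. KIF11, the motor that pushes spindle poles apart, fell by 0.27, the depolymerase KIF2C by 0.22, DLGAP5 by 0.18 and KIF4A by 0.15 on the log2 scale. KIF4A lost its call on thinned counts (adjusted p = 0.0572). KIF18A, which damps chromosome movements, was not called, at -0.05.

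KIF22, a chromosome-bound kinesin that pushes chromosome arms away from the poles (chromosome 16, 29790719 to 29805385), was the exception. It measured 80.6, 87.8 and 83.3 CPM in vehicle libraries and 99.1, 91.9 and 91.7 CPM in T3 libraries, so that all 3 T3 libraries lay above all 3 vehicle libraries. The log2 fold change was 0.17 (SE 0.0497, adjusted p = 0.00459). TRB T3 replicate 1 was the highest, and without it KIF22 missed the threshold (adjusted p = 0.0594), as it did with the GC trend removed (0.132). The annotation places 13% of its exon bases opposite an antisense gene.

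Among 8 cytokinesis genes 5 fell and 3 were not called. ANLN, the gene of anillin, which organises the contractile ring (chromosome 7, 36389806 to 36453791), measured 462, 472 and 468 CPM in vehicle libraries and 325, 319 and 298 CPM in T3 libraries. It fell by 32.9% (SE 0.0383 on the log2 scale, adjusted p = 1.84e-21), and the groups were well apart. KIF20A, the kinesin that carries the passenger complex to the midzone, went from 203, 193 and 198 CPM to 151, 155 and 149 CPM, a decrease without overlap (log2 fold change -0.38, SE 0.0407, adjusted p = 9.78e-13). KIF23 and RACGAP1, the subunits of centralspindlin, had log2 fold changes of -0.25 and -0.18. ECT2, the exchange factor they recruit to activate RhoA, was not called at -0.06 (95% interval -0.14 to 0.02), nor was the kinesin KIF20B at -0.06 (95% interval -0.15 to 0.04). KIF14 passed at -0.17 but missed the threshold without TRB vehicle replicate 2 (adjusted p = 0.0859) and on thinned counts (0.147). PRC1, which bundles midzone microtubules, held 569 counts over all 12 libraries and 4.42 to 5.89 CPM as group means, with a log2 fold change of 0.20 (95% interval -0.15 to 0.56). The annotation shares 58.4% of its exon bases with other genes, so its level depends on how shared reads were assigned.

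The APC/C regulators and substrates changed in both directions: 6 of 8 fell and 2 rose. CDC20, the activator of the APC/C in mitosis (chromosome 1, 43358955 to 43363203), measured 283, 274 and 256 CPM in vehicle libraries and 209, 194 and 193 CPM in T3 libraries. UBE2C, the E2 enzyme that supplies ubiquitin to the APC/C (chromosome 20, 45812576 to 45816957), stood at 90.2, 80.9 and 76.2 CPM and 57.8, 56.7 and 56.8 CPM. Both were lower with T3 in every library. CDC20 fell by 26.7% (SE 0.0404 on the log2 scale, adjusted p = 1.94e-15) and UBE2C by 30.7% (SE 0.0552, adjusted p = 5.68e-13). ESPL1, the gene of separase, went from 64.3, 62.3 and 56.7 CPM to 44.4, 43.2 and 47.8 CPM, and PTTG1, which encodes its inhibitor securin, from 122, 122 and 115 CPM to 102, 106 and 94.7 CPM. The RNAs of the protease and of its inhibitor were thus both lower without overlap, with log2 fold changes of -0.44 and -0.25 (adjusted p = 7.72e-09 and 1.55e-05).

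FZR1, the activator that takes over from CDC20 late in mitosis and in G1 (chromosome 19, 3506273 to 3538330), changed in the other direction. It measured 34.6, 29.3 and 30.3 CPM in vehicle libraries and 36.9, 38.1 and 37.7 CPM in T3 libraries, and every T3 library was higher. The log2 fold change was 0.26 (SE 0.0747, adjusted p = 0.00282), and on thinned counts it was 0.17 and not called (adjusted p = 0.236). BUB1B, which encodes the checkpoint protein BUBR1 (chromosome 15, 40161023 to 40221136), measured 69.9, 71.2 and 68.5 CPM in vehicle libraries and 95.3, 87.7 and 84.4 CPM in T3 libraries. It rose by 27.5% (log2 fold change 0.35, SE 0.0537, adjusted p = 8.94e-08) and kept its call under every alternative. The genes of the other checkpoint proteins that join BUBR1 and CDC20 in the mitotic checkpoint complex were lower. BUB3 was at -0.16 (adjusted p = 0.00125, but 0.0563 on thinned counts) and MAD2L1, the gene of MAD2, at -0.22 (adjusted p = 0.0161). MAD2L1 missed the threshold without TRB vehicle replicate 2 (0.235) or TRB T3 replicate 2 (0.139) and by DESeq2 (0.0888). In the annotation 10.2% of the exon bases of BUB1B are shared with the readthrough gene BUB1B-PAK6. The count files hold no gene of that name, so no read was counted under it.

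**Figure D2:**
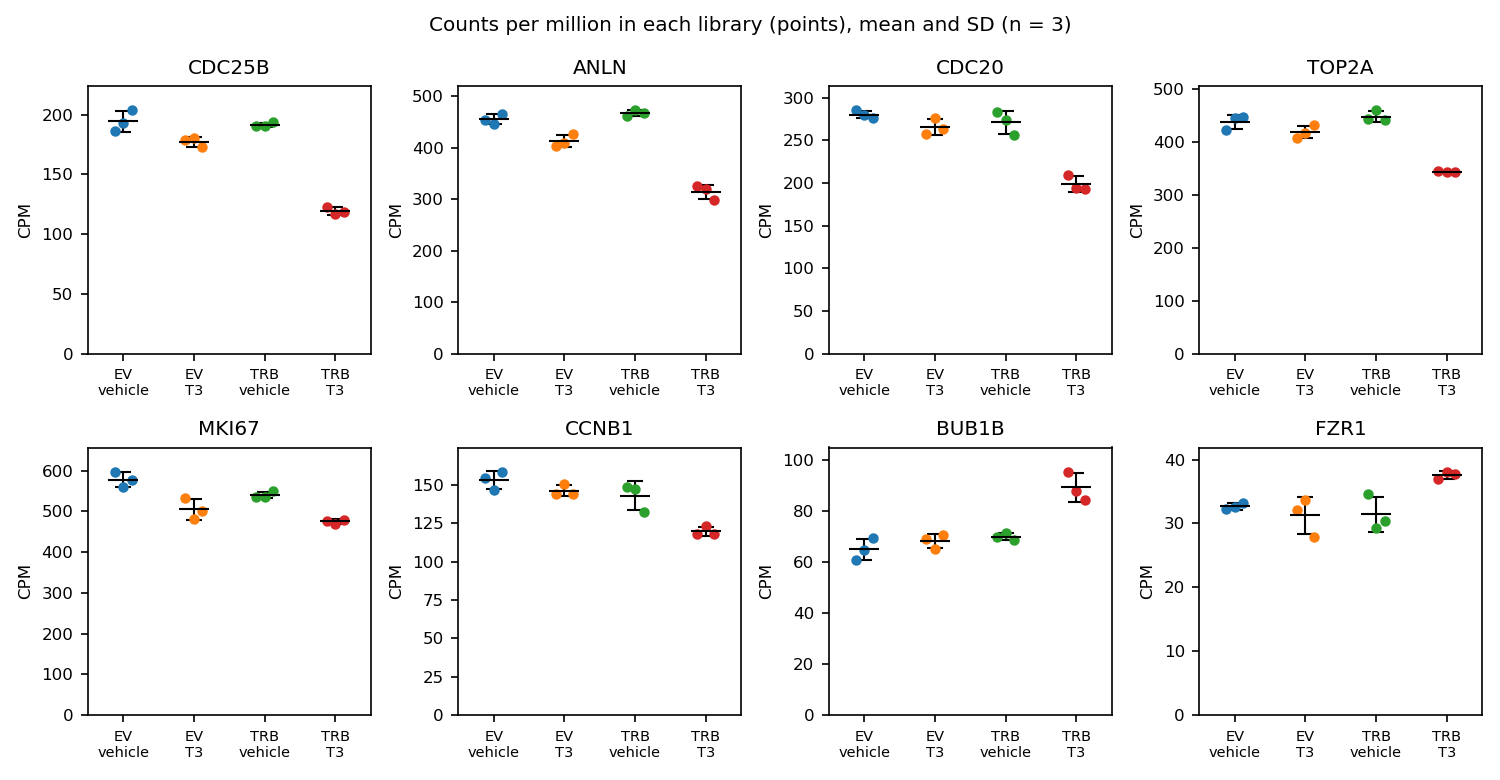
CPM in each of the 12 libraries (points) for 8 members, with the mean and SD of each group of 3 (bars). The TRB T3 libraries are the lowest group for CDC25B, ANLN, CDC20, TOP2A and CCNB1 and the highest for BUB1B and FZR1, while MKI67 is lower with T3 in both pools.

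All 6 condensin and chromosome genes fell in TRB cells. TOP2A, topoisomerase II alpha, which untangles sister chromatids (chromosome 17, 40388516 to 40417950), measured 443, 460.4 and 441 CPM in vehicle libraries and 346, 343 and 344 CPM in T3 libraries. The T3 libraries were almost equal, and TOP2A fell by 23.2% (SE 0.0375 on the log2 scale, adjusted p = 5.66e-14). MKI67, which encodes the Ki-67 protein that coats mitotic chromosomes (chromosome 10, 128096659 to 128126385), stood at 536, 536 and 549 CPM and 477, 469 and 479 CPM and fell by 12.1% (adjusted p = 5.86e-05), less than the median kinase. Of the condensin subunits NCAPH fell by 0.34, NCAPD2 by 0.27, NCAPG by 0.19 and SMC4 by 0.15 on the log2 scale. NCAPG was not called on thinned counts (adjusted p = 0.0508). The annotation has 33.1% of the exon bases of NCAPG and 25.6% of those of SMC4 opposite other genes.

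Both transcription factors of the list fell. FOXM1 (chromosome 12, 2857681 to 2877155) measured 159, 149 and 143 CPM in vehicle libraries and 119, 116 and 109 CPM in T3 libraries, and MYBL2 (chromosome 20, 43667019 to 43716496) 203, 198 and 189.6 CPM and 155, 159.8 and 143 CPM. Neither gene's groups overlapped. FOXM1 fell by 23.9% (SE 0.0457 on the log2 scale, adjusted p = 2.56e-11) and MYBL2 by 22.6% (SE 0.0439, adjusted p = 5.88e-11). The annotation places 15.9% of the exon bases of FOXM1 opposite another gene. Such shares were 12.5% for PLK1, 17.7% for SGO1 and 11.8% for CCNF.

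Across roles the median log2 fold change in TRB cells was -0.27 for kinases, -0.26 for cyclins and CDC25 phosphatases, -0.21 for kinetochore and centromere genes, -0.22 for spindle genes, -0.17 for cytokinesis genes, -0.23 for APC/C regulators and substrates, -0.23 for condensin and chromosome genes and -0.38 for the 2 transcription factors. The ranges of the roles overlapped and no test between roles was made. Within roles the spread was widest among APC/C regulators and substrates, from -0.53 for UBE2C to 0.35 for BUB1B, and narrowest, among roles of more than 2 genes, for the kinases. Per kilobase of exon the highest member in EV vehicle cells was CDC20, at a mean of 138 CPM per kb, followed by MYBL2 at 76.8, ANLN at 75.7 and TPX2 at 71.7 CPM per kb. In TRB T3 cells CDC20 was still the highest at 97.5 CPM per kb, followed by TPX2 at 61.6 and MYBL2 at 55 CPM per kb. At the low end stood PRC1, CDC25C and FZR1, at 0.897, 5.44 and 5.63 CPM per kb in EV vehicle cells. The value of PRC1 depends on how reads in exons shared with other genes were assigned. In TRB T3 cells FZR1 stood at 6.48 CPM per kb and CDC25C at 4.22 CPM per kb.

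**Figure D3:**
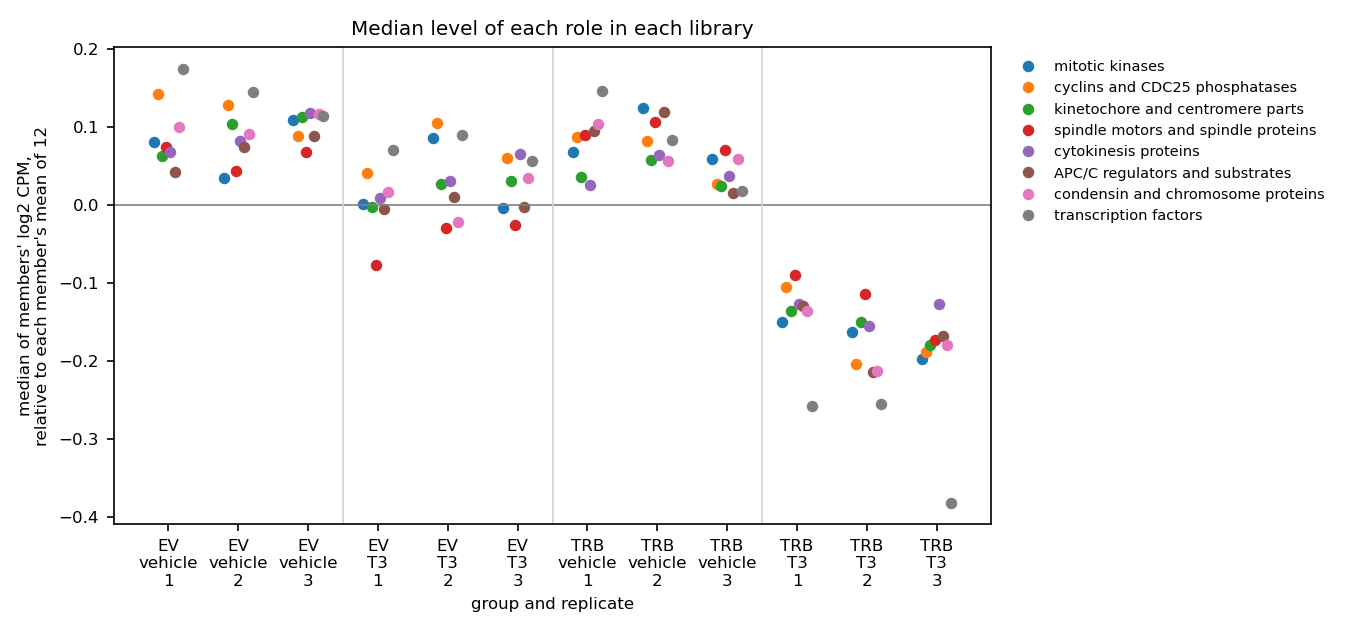
Median, over the members of each role (colours), of log2 CPM relative to each member's mean over the 12 libraries, for each library on the x axis. The 3 TRB T3 libraries lie below 0 for every role, between -0.38 and -0.09, while every role lies above 0 in all vehicle libraries of both pools.

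The second question was what T3 did without the added receptor. In EV cells 5 members fell and 0 rose, against 1.7% of all genes lower and 2.84% higher, 4.54% in either direction. The members' median log2 fold change was -0.07, with 51 of 58 below 0, against a median of -0.00 for all genes. The lowest value was that of CDC25C, at -0.305. CDC25C was not called in EV cells, but passed without EV T3 replicate 1 (adjusted p = 0.049). Its difference of T3 effects between the pools was not called. Every EV T3 library lay below every EV vehicle library in 25 members, an order found in 10.2% of all genes, and above in 1, PRC1, against 10.4%. The CPM of all members added up to 8271, 8258 and 8374 in EV vehicle libraries and to 7788, 7864 and 7878 in EV T3 libraries.

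MKI67 had the smallest p of the 5, with 597, 559 and 577 CPM in EV vehicle libraries and 533, 482 and 499.7 CPM in EV T3 libraries. It fell by 12.5% (log2 fold change -0.19, SE 0.0395, adjusted p = 0.000595), nearly the value in TRB cells, and kept this call under all 15 alternatives. NUSAP1 went from 145, 133 and 139 CPM to 125, 118 and 123 CPM (log2 fold change -0.19, adjusted p = 0.00677). In both genes the vehicle and T3 libraries did not overlap. ANLN (-0.14, adjusted p = 0.0175), CENPE (-0.17, adjusted p = 0.0191) and CDC25B (-0.14, adjusted p = 0.041) also passed. These 4 calls depended on single libraries. Without EV vehicle replicate 3 the adjusted p was 0.0541 for NUSAP1, 0.166 for ANLN, 0.167 for CENPE and 0.391 for CDC25B, and without EV T3 replicate 2 it was 0.0713, 0.0948, 0.0999 and 0.0722. Leaving out EV vehicle replicate 1 ended the calls of NUSAP1 (0.0722), ANLN (0.0636) and CENPE (0.0757). Leaving out EV T3 replicate 1 ended those of ANLN (0.0693) and CDC25B (0.0542), and leaving out EV vehicle replicate 2 or EV T3 replicate 3 ended that of CDC25B (0.0656 and 0.145). On thinned counts the adjusted p was 0.202 for ANLN, 0.0747 for CENPE and 0.224 for CDC25B, and with no filter on low counts it was 0.177, 0.108 and 0.202.

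CENPE was the only member called in EV cells and not in TRB cells, but its difference between pools was not called (0.14 (SE 0.0636, adjusted p = 0.114)). It stood at 135, 130.4 and 136 CPM in EV vehicle libraries and 119.6, 118 and 120.5 CPM in EV T3 libraries, lower in all 3. None of the 8 kinases, the 2 transcription factors or the 8 APC/C regulators and substrates was called in EV cells. CDK1 stood at 134 ± 7.29 CPM in vehicle libraries and 129.9 ± 4.71 CPM in T3 libraries (SD, n = 3; log2 fold change -0.05, 95% interval -0.15 to 0.04). CDC20 stood at 280.2 ± 4.59 CPM and 266 ± 9.58 CPM (-0.08, 95% interval -0.16 to 0.01) and UBE2C at 80.1 ± 2.77 CPM and 71.3 ± 1.56 CPM (-0.16, 95% interval -0.27 to -0.05), with every T3 library below every vehicle library in both. FZR1 and BUB1B, which rose in TRB cells, had log2 fold changes of -0.07 (95% interval -0.23 to 0.09) and 0.06 (95% interval -0.06 to 0.18) in EV cells. In 49 of 58 members the T3 effect was below 0 in both pools, against 32.2% of all genes. Across the 58 members the effects in the 2 pools, which share no library, had a Pearson r of 0.486 and a Spearman rho of 0.390, against an r of 0.413 across all genes. Genes are not independent replicates.

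The third question was whether the T3 effect differed between the pools, tested as an interaction. It was more negative in TRB cells for 26 members and more positive for 3, against 11.6% and 12.3% of all genes, 23.9% in either direction. The members' median difference was -0.18 on the log2 scale, against -0.00 for all genes. All 26 belong to the 45 that fell in TRB cells, and the 3 more positive ones are BUB1B, KIF22 and FZR1. CDC25B had the largest difference, at -0.54 (SE 0.0601, adjusted p = 1.58e-11), followed by ANLN at -0.43 (SE 0.0543, adjusted p = 8.23e-10), CDC20 at -0.37 (SE 0.0573, adjusted p = 2.6e-07) and UBE2C at -0.37 (SE 0.079, adjusted p = 0.000159). NDC80 differed by -0.36, MYBL2 by -0.35, BIRC5 by -0.32 and TOP2A by -0.31. These 8 were among 15 members whose difference passed under all 20 alternatives.

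By role the difference was called for 3 of 8 kinases (PLK1, PLK4 and NEK2), 4 of 7 cyclins and CDC25 phosphatases and 3 of 10 kinetochore and centromere genes. It was also called for 7 of 8 APC/C regulators and substrates and both transcription factors. Of 9 spindle genes it was more negative for 4 and more positive for 1. It was more negative for 3 of 8 cytokinesis genes and 2 of 6 condensin and chromosome genes. AURKA (adjusted p = 0.0574), AURKB (0.0608) and CDK1 (0.0509) missed the threshold narrowly, and each passed under some alternatives. PLK1 missed it on thinned counts (adjusted p = 0.0705) and PLK4 without TRB vehicle replicate 2 (0.0553) and by DESeq2 (0.0643), while NEK2 passed throughout. MKI67 was not called, at 0.01 (95% interval -0.10 to 0.12), and neither was CENPF, at -0.00 (95% interval -0.11 to 0.11). The intervals allow differences of about 0.1 in either direction. BUB1B was more positive in TRB cells by 0.29 (adjusted p = 0.00415, but 0.209 on thinned counts). KIF22 was at 0.23 (adjusted p = 0.0133, but 0.0711 without TRB T3 replicate 1, 0.0617 by DESeq2 and 0.183 on thinned counts). FZR1 was at 0.33 (adjusted p = 0.0197), and missed the threshold without EV vehicle replicate 3 (0.0581), EV T3 replicate 3 (0.106) or TRB vehicle replicate 2 (0.0753), by DESeq2 (0.11) and on thinned counts (0.276).

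The pools were then compared at each treatment. Without T3 the members differed little: 2 were lower in TRB cells and 1 was higher, against 7.4% and 7.86% of all genes (15.3% in either direction), and the members' median log2 fold change was -0.01. Every TRB library lay below every EV library in 13 members and above in 5, against 14.8% and 15.3% of all genes. HMMR stood at 92.9, 93.9 and 92.7 CPM in EV vehicle libraries and 109, 111 and 102 CPM in TRB vehicle libraries. It was higher in every TRB library (log2 fold change 0.20, SE 0.0527, adjusted p = 0.00333, and 0.0552 on thinned counts). KIF20B stood at 117, 105 and 114 CPM and 93.3, 99.8 and 90.3 CPM, lower in every TRB library (log2 fold change -0.24, SE 0.0526, adjusted p = 0.00062), and was the 1 member kept under all 15 alternatives. CDC25A stood at 32.7, 38.8 and 39.9 CPM and 34, 29.8 and 29.8 CPM, and EV vehicle replicate 1 lay within the TRB range. Its log2 fold change was -0.28 (SE 0.0832, adjusted p = 0.0139), and it missed the threshold without EV vehicle replicates 2 (0.0627) or 3 (0.145), TRB vehicle replicates 2 (0.0797) or 3 (0.0564), by DESeq2 (0.0794) and on thinned counts, where it was -0.18 (0.309). With offsets for the trend with GC content 7 members were called, 1 higher and 6 lower, and with offsets for gene length 6, 1 higher and 5 lower. In those fits CENPF, for example, passed at adjusted p = 0.00517 and 0.0227, against 0.0606 without offsets.

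With T3 in both pools, 41 members were lower and 3 higher in TRB cells, against 19.7% and 21% of all genes (40.7% in either direction), with a median log2 fold change of -0.19. Every TRB library lay below every EV library in 44 members and above in 3, against 23.4% and 24.2% of all genes. CDC25B stood at 179, 181 and 173 CPM in EV T3 libraries and 123, 117 and 118 CPM in TRB T3 libraries, and MYBL2 at 204, 216 and 209 CPM and 155, 159.8 and 143 CPM. In both genes all TRB libraries were lower, by 32.7% and 27.2% (adjusted p = 1.52e-19 and 5.5e-15). CDC20 was lower in TRB cells at a log2 fold change of -0.42, ANLN at -0.40, PLK1 at -0.34 and BIRC5 at -0.34. BUB1B stood at 69, 65.2 and 70.7 CPM in EV T3 libraries and 95.3, 87.7 and 84.4 CPM in TRB T3 libraries, higher in all 3 TRB libraries (log2 fold change 0.38, SE 0.0507, adjusted p = 1.63e-09). The other 2 higher members were FZR1, at 0.27 (adjusted p = 0.00112, and 0.244 on thinned counts), and KIF22, at 0.15 (adjusted p = 0.00681, but 0.102 without TRB T3 replicate 1, 0.0531 by DESeq2 and 0.265 on thinned counts). CDC25A (-0.29) and KIF20B (-0.22) were lower in TRB cells with T3, as they were without it, and had no called T3 effect in either pool.

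Of the 44 members called between the pools with T3, 27 were kept under all 15 alternatives and 11 were lost without some single library. MKI67 missed the threshold at -0.09 (adjusted p = 0.0626), but passed under 6 alternatives, among them DESeq2 (0.0357) and offsets for gene length (4.27e-05). Of the 45 members that fell with T3 in TRB cells 37 were also lower in TRB than in EV cells with T3, and these comparisons share the TRB T3 libraries. HMMR fell with T3 in TRB cells to 86.9 ± 3.21 CPM, a level not called different from the 88.4 ± 2.29 CPM of EV T3 cells (SD, n = 3; log2 fold change -0.02, 95% interval -0.12 to 0.07).

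**Figure D4:**
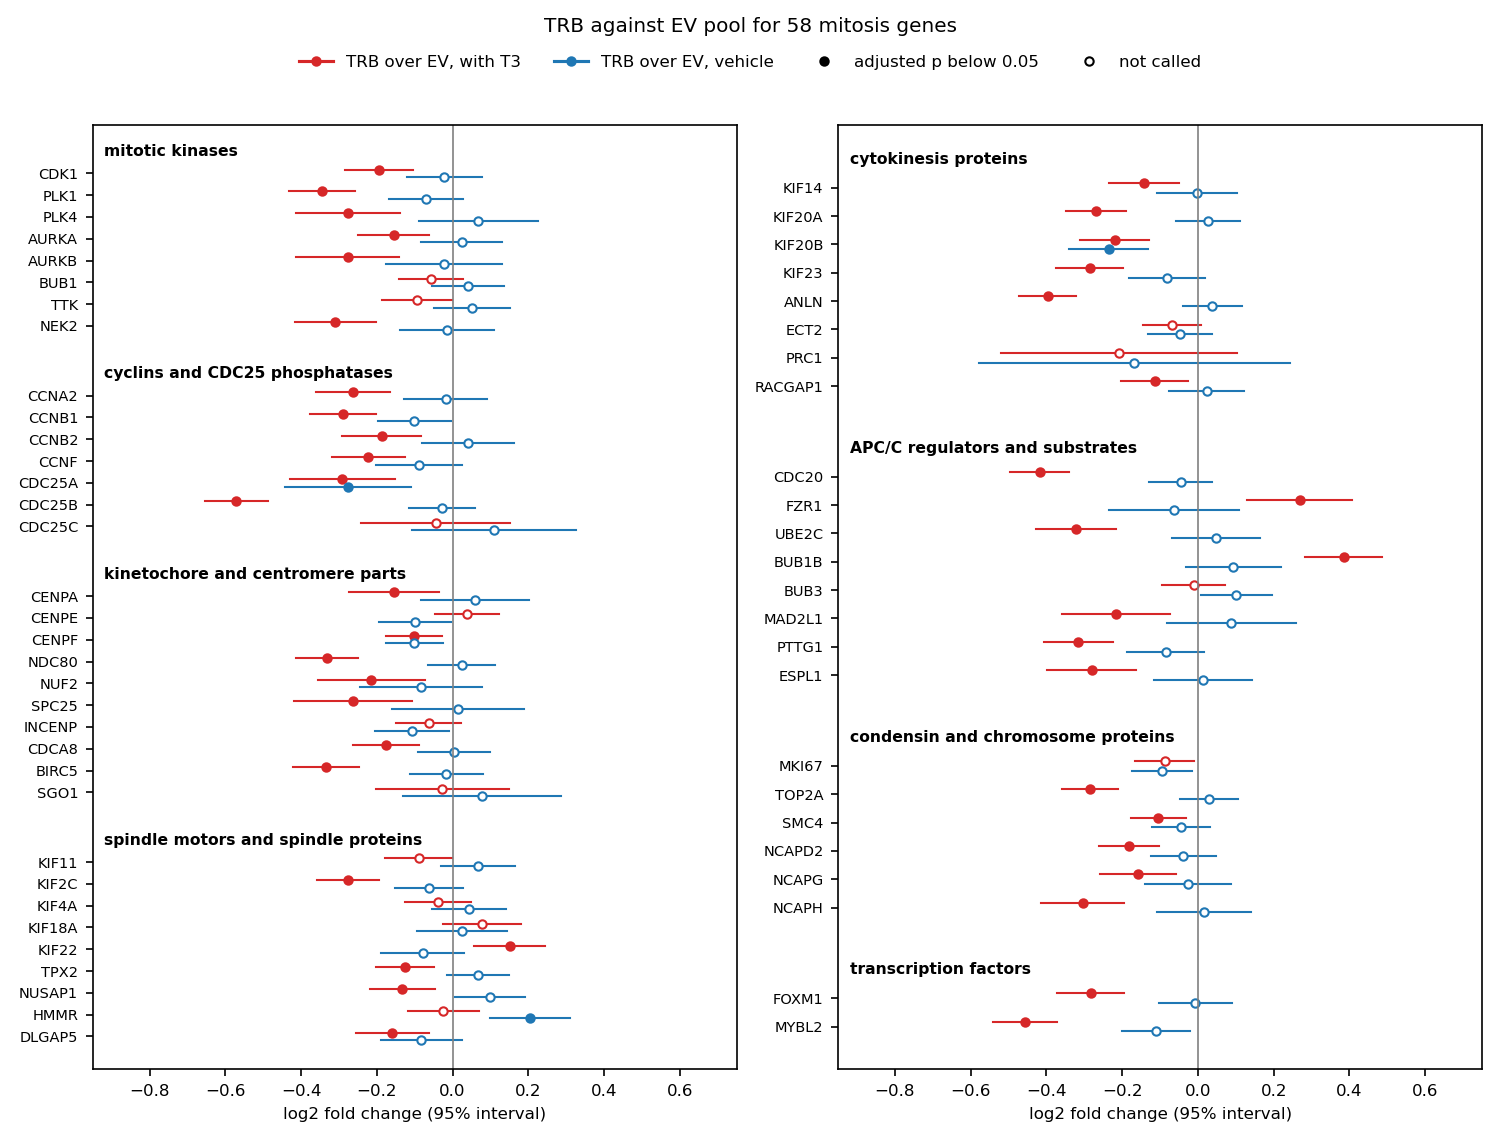
Log2 fold change of TRB over EV cells for each of the 58 members, by role, with T3 (red) and with vehicle (blue), with 95% intervals. Filled points passed an adjusted p of 0.05 (41 lower and 3 higher with T3, 2 lower and 1 higher with vehicle).

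Other genes of mitosis were listed by function, 92 in all, and all were tested. In TRB cells T3 lowered 45 (48.9%) and raised 6 (6.52%), against 21.9% and 22.4% of all genes, with a median log2 fold change of -0.14. Of 19 further spindle and cytokinesis genes 14 fell and 0 rose (median -0.20), and of 24 further kinetochore genes 13 fell and 0 rose (median -0.22). FAM83D, a spindle protein, fell by 0.55 and CKAP2, a microtubule-associated protein, by 0.46 on the log2 scale. NSL1, a subunit of the MIS12 complex of the kinetochore, fell by 0.48, and the centromere protein CENPN by 0.25. Of 14 cohesin and condensin genes 9 fell and 0 rose (median -0.13), led by the cohesin subunits STAG1 (-0.30) and STAG2 (-0.22).

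Of 16 genes of the APC/C core and its direct partners 5 fell (31.2%) and 4 rose (25%), shares near those of all genes (21.9% and 22.4%), with a median of -0.06. FBXO5, which encodes the APC/C inhibitor EMI1, fell by 0.44 and the small subunit ANAPC16 by 0.38, while the subunits CDC27 and ANAPC7 rose by 0.19 and 0.20. The 11 genes of MuvB, DREAM and the pocket proteins had 1 lower (RBBP4, -0.21) and 1 higher (TFDP2, 0.26), with a median of -0.04, so that called genes made up a smaller share than among all genes. Of 8 genes of CDK1 inhibition and phosphatase control 3 fell, among them MASTL (-0.34), the Greatwall kinase, and 1 rose, PPP2R2D (0.38), a regulatory subunit of the phosphatase PP2A that Greatwall restrains.

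In EV cells T3 lowered 2 of the 92 (2.17%) and raised 0, near the 1.7% of all genes that fell and against 2.84% that rose. The 2 were the citron kinase gene CIT (-0.19 (SE 0.0564, adjusted p = 0.0308)) and the microtubule polymerase gene CKAP5 (-0.12 (SE 0.0372, adjusted p = 0.0477)). Without T3, 9 of the 92 were higher in TRB cells (9.78%) and 2 lower (2.17%), against 7.86% and 7.4% of all genes, with CKAP2 at 0.24 and RBBP4 at 0.23 among the higher and the cohesin subunits SMC1A (-0.19) and RAD21 (-0.16) the lower ones. With T3, 32 were lower (34.8%) and 6 higher (6.52%), against 19.7% and 21% of all genes. The difference of T3 effects was called more negative for 19 (20.7%) and more positive for 2 (2.17%), against 11.6% and 12.3%. FAM83D (-0.53) and ANAPC16 (-0.46) had the smallest p for that difference in their lists.

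**Figure D5:**
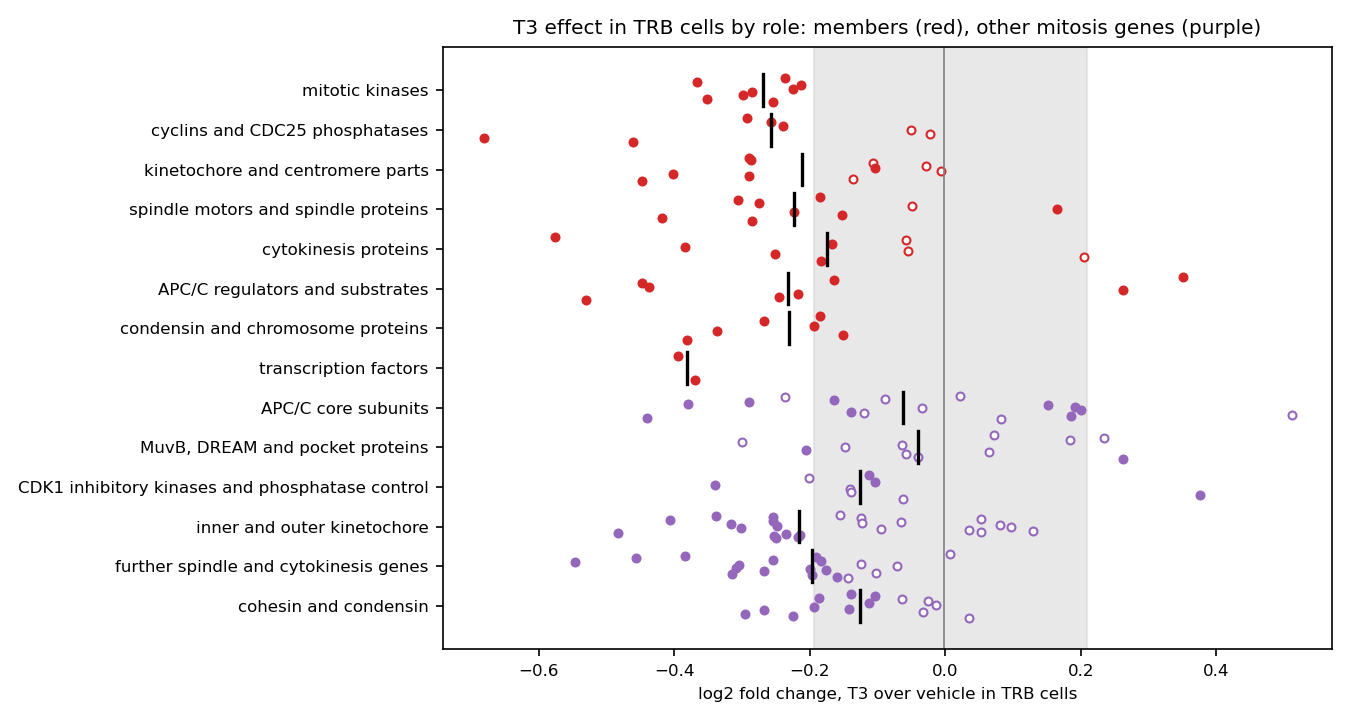
Log2 fold change of T3 over vehicle in TRB cells for each member (red) and each other mitosis gene (purple), by role, with the median of each role as a bar, filled points where the adjusted p was below 0.05, and the middle 50% of all genes tested in grey. Medians run from -0.38 for the transcription factors to -0.17 for cytokinesis proteins among the members, and from -0.22 to -0.04 among the other lists.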

How the data were processed

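RNA sequencing counts were used for 12 libraries, 3 in each of 4 groups. The members and all lists were chosen with earlier results of these data known. Each library's file, as deposited by the authors, holds raw counts for every gene and 5 summary lines that name no gene, which held 31.9% to 39.2% of the reads and were left out. The submitters' processing notes name CASAVA 1.7, STAR 2.7, HTSeq 0.10, DESeq2 and build hg38. The strand setting of the counting and its annotation are not given in the sources used here. A deposited table of normalized values was not used.

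The test was that of edgeR 4.0.16 (R 4.3.3, limma 3.58.1) on all 12 libraries in 1 fit of 4 group means: filterByExpr (minimum count 10, total 15), TMM, robust quasi-likelihood with 8 residual degrees of freedom and Benjamini-Hochberg adjustment over 14549 genes at 0.05. Standard errors (SE) were obtained by dividing log2 fold changes by the root of F, and intervals are at 95%. CPM values were computed from the counts and cover counting and replicate error only. The steps were tested on simulated counts. Lists were described by counts and medians, with no test of a list. Any member could be named, in each comparison first the 3 with the smallest p of each role and those called against the direction of the others, and of each other list the 2 genes with the smallest p. Other genes named were the cell type markers, THRB, and STAG2, CDC27 and ANAPC7 among others of their lists that passed, chosen after their values were seen. One of the leukocyte markers is not reported here.

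Gene coordinates, exon lengths and GC content come from GENCODE on hg38, and promoters from RefSeq (GRCh38.p14). Of the copies that could share reads with members, KIF4B had 26 counts and PTTG2 had 4 counts over all libraries. PTTG3P and CDC20P1 were not among the gene names counted. These counts do not show how many reads were shared. Replicates of a group differed by more than sampling noise in every pair, and all 12 libraries were kept. This spread cannot tell separate cultures from repeat libraries of 1 culture. Same-numbered libraries did not deviate together (18 correlations from -0.124 to 0.0835), so replicate numbers were not taken as pairs. Alternatives were DESeq2 1.42.0, RLE factors, no filter, a stricter one (over 1 CPM in 3 libraries), only the compared groups in the fit, a block for the replicate number, counts thinned to 4241863 per library, and each library left out in turn. Offsets for trends with GC content and gene length were added after seeing the data.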

Additional observations from a re-analysis of the deposited data

Results flagged for a closer look

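The T3 effect differed between TRB and EV cells for 29 of the 58 members by edgeR's quasi-likelihood test of the interaction. That call is why they are listed here. For 26 of them the effect was more negative in TRB cells. Among all genes tested 23.9% were called for this difference, 11.6% more negative and 12.3% more positive in TRB cells. Among kinases the differences on the log2 scale were -0.28 for PLK1, -0.35 for PLK4 and -0.30 for NEK2. Among cyclins and CDC25 phosphatases they were -0.25 for CCNA2, -0.19 for CCNB1, -0.23 for CCNB2 and -0.54 for CDC25B. Kinetochore genes differed by -0.36 (NDC80), -0.18 (CDCA8) and -0.32 (BIRC5), and spindle genes by -0.21 (KIF2C), -0.19 (TPX2), -0.23 (NUSAP1) and -0.23 (HMMR). The cytokinesis genes were KIF20A (-0.30), KIF23 (-0.20) and ANLN (-0.43). The APC/C regulators and substrates were CDC20 (-0.37), UBE2C (-0.37), MAD2L1 (-0.30), PTTG1 (-0.23) and ESPL1 (-0.29). TOP2A (-0.31), NCAPH (-0.32), FOXM1 (-0.28) and MYBL2 (-0.35) complete the 26. For 3 members the effect was more positive in TRB cells: KIF22 (0.23), FZR1 (0.33) and BUB1B (0.29).

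Leaving out 1 library ended 10 of these 29 calls. For PLK4 (adjusted p = 0.0553) and HMMR (0.0525) it was TRB vehicle replicate 2, for CCNA2 (0.0801) and KIF23 (0.0624) EV vehicle replicate 2, and for KIF22 (0.0711) TRB T3 replicate 1. FZR1 was lost without EV vehicle replicate 3, EV T3 replicate 3 or TRB vehicle replicate 2 (up to 0.106). CCNB1 was lost without EV vehicle replicate 2, EV T3 replicate 2 or TRB vehicle replicates 1 or 2 (up to 0.116). MAD2L1 was lost without EV vehicle replicates 1 or 3, EV T3 replicate 2, TRB vehicle replicate 2 or TRB T3 replicate 2 (up to 0.203). CCNB2 was lost without EV vehicle replicates 1 or 3, EV T3 replicate 3, TRB vehicle replicates 2 or 3 or TRB T3 replicate 2 (up to 0.144). CDCA8 was lost without any EV vehicle replicate, EV T3 replicate 3, TRB vehicle replicate 1 or TRB T3 replicate 3 (up to 0.17).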

How the results depend on the processing

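No direction of a called member was turned by any alternative. The 48 members called for T3 in TRB cells became 45 to 48 when 1 library was left out, 47 by DESeq2 and 42 on thinned counts. The 5 called for T3 in EV cells became 1 to 5 when 1 library was left out, 2 with no filter on low counts and 2 on thinned counts. Without T3 the 3 calls between pools became 2 to 3 with 1 library left out, but 7 with offsets for the GC trend (1 higher, 6 lower) and 6 with offsets for gene length (1 higher, 5 lower). The cause was not tested. With T3 the 44 calls between pools became 38 to 45 with 1 library left out, 32 on thinned counts and 48 with offsets for either trend. The 29 differences of T3 effects became 23 to 33 with 1 library left out, 21 by DESeq2 and 20 on thinned counts.

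Over all genes the calls moved from 660 to 372 by DESeq2, 432 on thinned counts and 275 without EV vehicle replicate 3 for T3 in EV cells, from 2220 to 1417 by DESeq2 without T3, and from 5916 to 3995 on thinned counts between the pools with T3. For T3 in TRB cells they moved from 6456 to 4996 by DESeq2 and 4821 on thinned counts. For the difference of T3 effects they moved from 3470 to 2399 by DESeq2 and 2455 on thinned counts. With the replicate number as a block, the calls were 48, 5, 3, 44 and 29, as without it. Libraries shared only a number: none of 18 same-numbered pairs had a correlation above 0.1, and 6 of 12 libraries correlated best with their own number. Precision is limited for the members with few counts, such as PRC1 and CDC25C, whose SE for T3 in TRB cells was 0.18 and 0.1. The count of PRC1 also depends on how shared reads were assigned.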
